A study of Mus musculus with 45 samples.

Results

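Oxidative phosphorylation is carried out by 5 protein complexes of the inner mitochondrial membrane, and the genes described here are the subunits of those complexes that the nucleus encodes. Members were taken by symbol: Nduf followed by a, b, c, s or v and a digit, Cox4i, Cox5, Cox6, Cox7, Cox8, Uqcr, Atp5 and Sdha to Sdhd, without the Ndufaf assembly factors and without symbols ending in -ps. Of the 24421 genes in the table, 84 symbols matched, and 76 of them reached at least 1 CPM (reads of a gene as a share of the library, scaled to a fixed total) in 3 or more of 21 libraries. The 76 were 34 genes of complex I, 4 of complex II, 8 of complex III, 13 of complex IV and 17 of complex V. The 8 symbols that did not pass were Cox4i2, Cox6a2, Cox6b2, Cox7b2, Cox8b, Cox8c, Ndufa4l2 and Ndufs5. Ndufs5 and Cox7b2 had 0 reads in every library, and whether this reflects expression or how reads were counted was not tested. Atp5s and Atp5sl match the Atp5 symbols but do not code for subunits of the ATP synthase, and Cox7a2l codes for a factor that joins complexes into supercomplexes. They were kept where the symbols put them. Ndufa4 was counted with complex IV and not, as its symbol would have it, with complex I.

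The libraries are poly(A) RNA of bone-marrow-derived macrophages from C57BL/6 mice, taken on day 7 of culture in medium conditioned by L929 cells, which supplies the macrophage growth factor M-CSF. The untreated group received no cytokine. The cytokines were IL-4 at 10 ng/ml and IFN-γ at 100 ng/ml. The other 6 groups were given the first, the second or the pair, for 2 h or for 4 h, and every group holds 3 replicates, R1, R2 and R3. All 7 groups share the strain and the culture, and the other 24 of the 45 samples in the series were not analysed here. Separate mice or cultures are not named for the replicates, so p-values measure the spread between these libraries. In bulk RNA, fewer cells of a type and less RNA per cell cannot be told apart.

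Complexes I to IV pass electrons from NADH and succinate to oxygen, and complexes I, III and IV pump protons as they do so. Complex V, the ATP synthase, uses the returning protons to make ATP, and complex II, succinate dehydrogenase, is also an enzyme of the tricarboxylic acid cycle. In macrophages, activation by IL-4 is known for relying on oxidative metabolism, and activation by interferon-γ with bacterial products for a turn towards glycolysis. The 13 subunits that mitochondrial DNA encodes were not analysed here.

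Promoters of 65 of the 76 genes were in the RefSeq promoter table for GRCm38.p6, with 71 start sites. Atp5a1, Cox4i1, Ndufs1 and Uqcrc2 were among the genes with no entry. The 250 bases before each start were searched on both strands for short motifs, 4 of which are given here. GCGCANGC, a core of sites of the respiratory regulator NRF1, was found before 26.8% of these starts and before 8.30% of all 32851 starts in the table. CCGGAAG, a core of sites of the ETS factors that include GABP (also called NRF2), was found before 16.9% of these starts and 6.91% of all. CCAAT was found before 42.3% and 33.9%, and the E-box CACGTG before 12.7% and 6.02%. These shares also differ in base composition, since the windows of the 76 genes had a median of 56.4% G and C, against 52.4% for all. A match describes letters and was not tested as a binding site.

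A few windows are shown because their genes carry the results below, each 5′ to 3′ on the gene's strand and ending where the GENCODE annotation begins the gene, with every match in capitals. Uqcrfs1 lies at chr13:30545363-30545566 (minus strand), Cox6a1 at chr5:115348982-115349208 (minus strand), Atp5b at chr10:128083057-128083272 (plus strand) and Cox7b at chrX:106015450-106015699 (plus strand).
Uqcrfs1: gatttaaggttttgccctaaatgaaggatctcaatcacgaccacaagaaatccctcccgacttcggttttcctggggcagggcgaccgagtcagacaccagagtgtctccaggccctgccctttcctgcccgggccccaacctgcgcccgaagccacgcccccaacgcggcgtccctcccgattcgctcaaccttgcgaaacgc
Cox6a1: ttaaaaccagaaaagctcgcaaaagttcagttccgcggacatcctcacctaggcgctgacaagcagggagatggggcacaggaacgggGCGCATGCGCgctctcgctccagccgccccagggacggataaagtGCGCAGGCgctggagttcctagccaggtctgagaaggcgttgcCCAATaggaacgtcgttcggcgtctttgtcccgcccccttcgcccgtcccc
Atp5b: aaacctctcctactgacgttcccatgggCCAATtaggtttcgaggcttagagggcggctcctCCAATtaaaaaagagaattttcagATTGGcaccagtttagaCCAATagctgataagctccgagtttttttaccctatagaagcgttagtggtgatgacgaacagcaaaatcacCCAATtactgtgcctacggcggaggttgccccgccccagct
Cox7b: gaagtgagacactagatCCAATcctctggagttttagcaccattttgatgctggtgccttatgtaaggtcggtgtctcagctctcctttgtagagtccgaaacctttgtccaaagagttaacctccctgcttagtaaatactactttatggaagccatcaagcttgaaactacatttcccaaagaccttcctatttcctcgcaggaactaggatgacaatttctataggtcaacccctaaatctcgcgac
In the Cox6a1 window the first run of capitals holds 2 overlapping GCGCANGC matches, one on each strand, at 162 and 160 bases before the RefSeq start. The second run is the third match, at 117 bases, and CCAAT stands at 74 bases. A CCGGAAG match at 16 bases before the RefSeq start of Cox6a1 lies past the end of the window shown. The Atp5b window holds 5 CCAAT matches, the Cox7b window 1, and the Uqcrfs1 window none of these 4 motifs.

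The libraries held between 28920801 (untreated R2) and 80028327 (untreated R3) reads. The ribosomal RNA gene Rn45s took 0.151%, 43.2% and 15.7% of the reads in untreated R1, R2 and R3, and at most 3.21% in a treated library, so untreated R2 and R3 stand apart. CPM were therefore divided by a median-ratio factor per library, 0.577 in untreated R2 and 0.803 to 1.21 elsewhere; values below are these rescaled CPM. The summed level of 7 macrophage markers ran from 16385 to 36870 CPM. Summed markers of T cells, B cells, NK cells and red cells stayed at or below 0.330 CPM, those of dendritic cells and mast cells at or below 2.42 CPM, those of fibroblasts at or below 15.5 CPM, those of endothelial cells at or below 34.98 CPM, and 3 neutrophil markers ran from 43.4 to 223 CPM. The ranges of the neutrophil sum overlapped in all 7 groups, and their part in the results was not tested.

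Per kilobase of merged exons, Cox4i1, a subunit of complex IV, had the highest mean level over the 21 libraries (358 rescaled CPM per kilobase). The catalytic ATP synthase subunits Atp5b (277) and Atp5a1 (199) followed. The lowest levels were those of Atp5s (0.939), Ndufb2 (2.37), Cox7a1 (2.996) and Atp5sl (4.65). Atp5o had no length in the annotation. Reads can be split between these genes and their processed pseudogenes, and how reads with several matches were counted is not given in the sources used here, so levels of single genes are uncertain to that extent.

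At 4 h, with the median-ratio factors, more of the 76 genes rose than fell under each treatment. A gene is called here when the Benjamini-Hochberg adjusted p of limma's moderated test over all 11380 tested genes, with the R number as a block, is under 0.05; it then "rose" or "fell". After IL-4 for 4 h, 22 of the 76 genes rose and 2 fell, that is 28.9% and 2.63% of them, where 23.9% of all tested genes were called higher and 23.6% lower. After IFN-γ for 4 h, 29 rose and 2 fell, or 38.2% and 2.63%, beside 32.5% and 30.8% of all tested genes. The 2 that fell were Atp5s and Atp5sl, which do not code for subunits of the ATP synthase. After both cytokines for 4 h, 41 rose and 4 fell, or 53.9% and 5.26%, beside 33.4% and 33.4% of all. The rising share lay near that of all genes after either cytokine alone, and the falling share was the smaller one in all 3 comparisons.

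At 2 h few of the genes were called. IL-4 raised 4 and lowered 3, beside 14.0% and 11.5% of all tested genes; IFN-γ raised 9 and lowered 3, beside 20.2% and 17.9%. Both cytokines raised 6 and lowered 3, beside 22.6% and 20.9%. The 3 comparisons at each time share the untreated libraries. Changes were small: the median log2 change of the 76 genes was 0.14 after IL-4, 0.19 after IFN-γ and 0.23 after both at 4 h, and the single changes at 4 h lay between -1.11 and 0.81.

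How libraries were scaled moved these counts. Without rescaling, the deposited CPM put the median of all tested genes 0.43 (IL-4), 0.10 (IFN-γ) and 0.19 (both) above untreated on the log2 scale at 4 h. CPM recomputed without Rn45s and Lars2 put it at 0.04, -0.28 and -0.18. Relative to the median of all genes, the median of the 76 genes was higher under all 4 scalings, by 0.15 to 0.19 after IL-4, 0.16 to 0.20 after IFN-γ and 0.21 to 0.24 after both. Without Rn45s and Lars2, 3 of the 76 genes rose and 27 fell after IFN-γ for 4 h, beside 18.1% and 54.0% of all genes tested under that scaling. After both cytokines 12 rose and 9 fell, beside 23.2% and 45.7%. This scaling shifts all genes of a library alike, and the rising and the falling share of the 76 both stayed under those of all genes. More of the 76 genes fell than rose after IFN-γ under it. The counts in the next paragraph, and those of complexes I, IV and V, are also given for genes called in the same direction under all 4 scalings. Other counts below are those with the median-ratio factors, unless the sentence says otherwise.

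Under all 4 scalings, 22 genes rose after IL-4 for 4 h, beside 23.9% of all tested genes. In this comparison the median of all tested genes was -0.01 with the median-ratio factors and 0.02 to 0.43 under the other scalings. All 2722 tested genes called higher with the median-ratio factors kept the call. For a rise after IL-4 for 4 h, the call under all 4 scalings therefore adds nothing to the first call. After IFN-γ for 4 h 3 rose (18.1% of all) and 1 fell (13.8%), and after both for 4 h 12 rose (23.2%) and 1 fell (14.2%). At 2 h, 2 rose after IL-4 (12.9%) and 2 after IFN-γ (14.6%), and 2 rose (17.4%) and 1 fell (5.16%) after both. Of the 22 genes after IL-4 for 4 h, 6 were also called without the block: Atp5g3, Atp5h, Cox5a, Ndufs3, Ndufs7 and Uqcrfs1. The changes were also computed against untreated R1 alone, the untreated library with little Rn45s. That control is 1 library, so the spread in this fit comes from the other groups and the lone library is assumed to vary like them; its values below are descriptions and decide no call. In it 2 genes passed the threshold higher and 4 lower after IL-4 for 4 h (15.3% and 16.8% of all tested genes), 8 and 3 after IFN-γ (25.8% and 25.1%) and 11 and 4 after both (26.3% and 26.7%). Within R1 the median difference of the 76 genes from untreated was -0.07 after IL-4 for 4 h, with 33 genes higher; within R2 it was 0.14 with 60 higher, and within R3 0.34 with 72 higher. For IFN-γ the medians within R1, R2 and R3 were 0.04, 0.24 and 0.24, and for both cytokines 0.00287, 0.38 and 0.28. The shift of the whole group at 4 h was thus seen in R2 and R3, whose untreated libraries carry the Rn45s reads, and was close to 0 in R1. With 1 untreated library per R number, Rn45s content and R number cannot be told apart here.

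**Figure D1:**
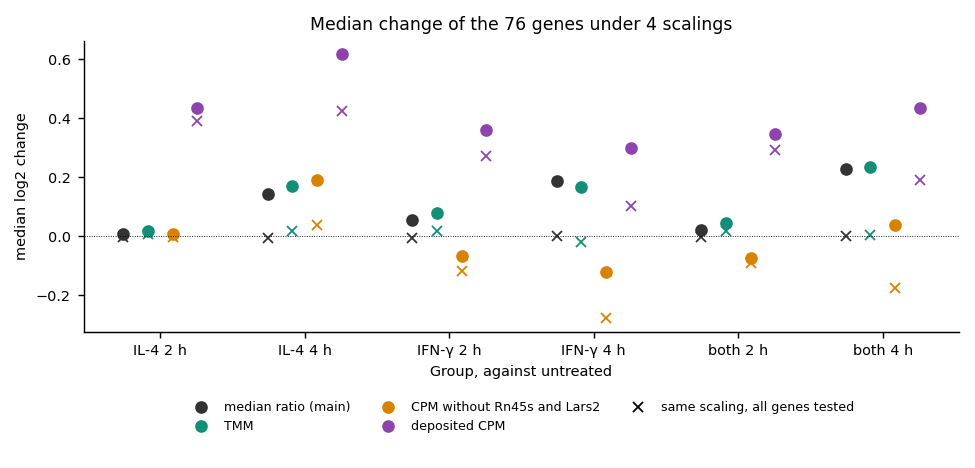
Median log2 change against untreated (vertical axis) of the 76 genes (circles) and of all tested genes (crosses) in the 6 treated groups, with one colour per scaling. The circles lie above the crosses of the same colour in all 6 groups, and those of IFN-γ at 4 h lie between -0.12 and 0.30. A scaling moves circles and crosses nearly alike, so the colours are not separate checks of the distance between them.

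**Figure D2:**
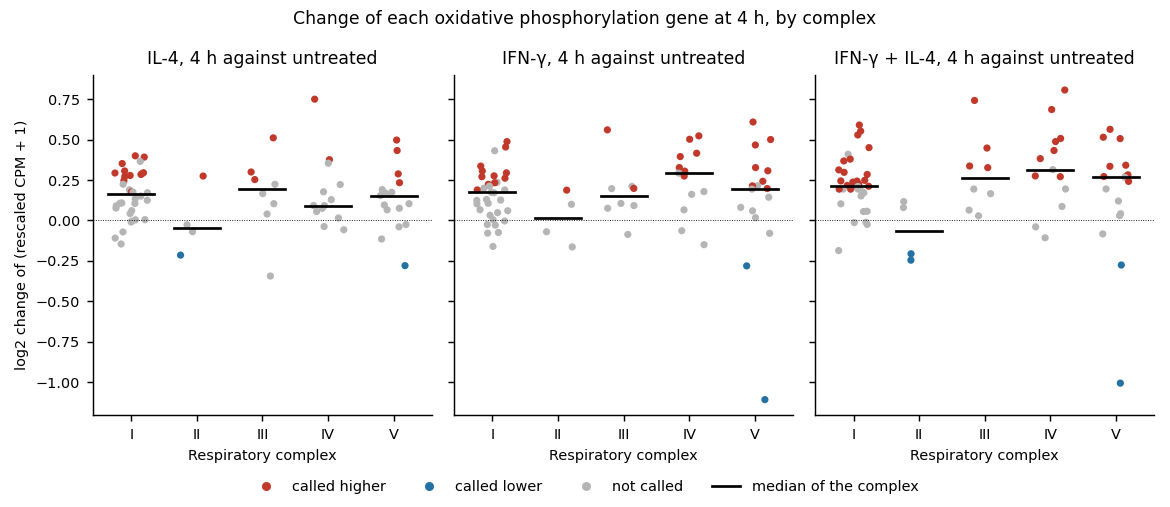
Log2 change at 4 h of each of the 76 genes (points), grouped by complex, with red for genes called higher, blue for genes called lower and a bar at the median of the complex. The medians of complex II lie between -0.06 and 0.01, and those of the other complexes between 0.09 and 0.31.

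The counts per complex stand beside the shares of all tested genes called higher at 4 h: 23.9% after IL-4, 32.5% after IFN-γ and 33.4% after both, and under all 4 scalings 23.9%, 18.1% and 23.2%. Complex I, NADH dehydrogenase, had 12 of 34 genes raised and none lowered after IL-4 for 4 h. All 12 were called under all 4 scalings, as was every tested gene that rose in this comparison. IFN-γ raised 11, of which 1, Ndufs3, was called under all 4, and both cytokines raised 20, of which 3 were: Ndufs3, Ndufs7 and Ndufc1. Ndufs3 (GRCm38 chr2:90894634-90904827, minus strand), a core subunit of the arm that carries electrons, stood at 39.4, 32.6 and 32.8 rescaled CPM in untreated R1, R2 and R3. It stood at 44.2, 40.2 and 45.4 after IL-4, at 52.2, 46.5 and 49.0 after IFN-γ and at 52.9, 49.4 and 52.2 after both, all for 4 h. Every library of these 3 groups was above every untreated library. The log2 changes were 0.31 (SE 0.07, adjusted p = 0.00132), 0.49 (SE 0.07, adjusted p = 8.53e-06) and 0.55 (SE 0.07, adjusted p = 1.73e-06), higher in 3 of 3 R numbers each. Against untreated R1 alone the changes were 0.18 after IL-4, 0.36 after IFN-γ and 0.43 after both.

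Ndufs1, the largest iron-sulphur subunit of complex I, rose after IL-4 for 4 h. It stood at 68.2, 81.8 and 67.5 in untreated cells and at 83.6, 90.4 and 88.2 after IL-4 for 4 h, with no overlap. After IFN-γ for 4 h it stood at 71.2, 78.9 and 66.5, and after both at 70.7, 73.7 and 70.6, within or near the untreated range. The change after IL-4 was 0.27 (SE 0.08, adjusted p = 0.00999), higher in 3 of 3 R numbers, and lost its call without the block (adjusted p = 0.194); against untreated R1 alone it was 0.24. After IFN-γ for 4 h it changed by -0.00334, and by -0.31 (adjusted p = 0.00325) without Rn45s and Lars2.

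Among the other core subunits of complex I, Ndufs7 rose after IL-4 for 4 h (0.40, SE 0.11, adjusted p = 0.00546) and after both (0.53, SE 0.11, adjusted p = 3.54e-04), and Ndufv2, a subunit of the NADH-oxidising tip, after IL-4 (0.29, SE 0.10, adjusted p = 0.0229), each under all 4 scalings. Ndufv1, which binds NADH, was called higher after IFN-γ for 4 h at 0.23, and at -0.07 without Rn45s and Lars2. Ndufs8 was called in none of the 15 comparisons, with changes against untreated between -0.12 and 0.01; without Rn45s and Lars2 its change after IFN-γ for 4 h was -0.34 (adjusted p = 5.37e-04).

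Complex II, succinate dehydrogenase, had the lowest medians at 4 h of the 5 complexes, between -0.06 and 0.01. Of its 4 genes, IL-4 for 4 h raised Sdhd, a membrane anchor, and lowered Sdhb, the iron-sulphur subunit; both cytokines lowered Sdha, the flavin-bearing catalytic subunit, and Sdhb. Sdhb stood at 100.04, 114 and 86.1 in untreated R1, R2 and R3, at 79.2, 92.6 and 85.5 after IL-4 for 4 h, and at 75.0, 105 and 74.4 after both for 4 h. Each treated library was below the untreated library of its R number, and the groups overlapped. The log2 changes were -0.21 (SE 0.08, adjusted p = 0.0277) and -0.25 (SE 0.08, adjusted p = 0.00884), the first of which turned to 0.26 in the deposited CPM. Against untreated R1 alone they were -0.32 and -0.35.

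Sdhd stood at 97.0, 109 and 85.6 in untreated cells and at 111, 119.5 and 121 after IL-4 for 4 h, a change of 0.27 (SE 0.09, adjusted p = 0.0147) that was called under all 4 scalings. Without the block its adjusted p was 0.147. Sdha stood at 242, 271 and 283 in untreated cells and at 214, 241 and 234 after both for 4 h. Its change of -0.21 (SE 0.06, adjusted p = 0.00776), lower in 3 of 3 R numbers, was 0.01 in the deposited CPM. Sdhc, the other membrane anchor, changed by 0.19 after IFN-γ for 4 h and by -0.12 without Rn45s and Lars2.

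In complex III, which passes electrons from ubiquinol to cytochrome c, Uqcrfs1 rose in all 6 comparisons with untreated under all 4 scalings. Uqcrfs1 (chr13:30540308-30545362, minus strand) codes for the Rieske iron-sulphur protein. It stood at 59.5, 52.2 and 52.3 in untreated cells and at 76.7, 78.3 and 79.5 after IL-4 for 4 h. After IFN-γ for 4 h it stood at 90.7, 76.04 and 76.8, and after both at 97.4, 91.2 and 87.5. All 18 treated libraries were above the highest untreated one. The log2 changes at 4 h were 0.51 (SE 0.09, adjusted p = 1.27e-04), 0.56 (SE 0.09, adjusted p = 2.87e-05) and 0.74 (SE 0.09, adjusted p = 1.02e-06). At 2 h they were 0.31 after IL-4, 0.37 after IFN-γ and 0.54 after both. Against untreated R1 alone the 3 changes at 4 h were 0.42, 0.47 and 0.65, and that of both at 2 h was 0.45. Those of IL-4 and of IFN-γ at 2 h against untreated R1 are not reported here. Without the block, the rise after IL-4 for 2 h lost its call.

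The core proteins Uqcrc1 and Uqcrc2 rose after IL-4 for 4 h under all 4 scalings, by 0.25 (SE 0.07, adjusted p = 0.0047) and 0.30 (SE 0.08, adjusted p = 0.00503). Without the block neither was called. Uqcrc2 stood at 102, 126 and 103 in untreated R1, R2 and R3, at 119.7, 145 and 143 after IL-4 for 4 h, at 110.01, 125 and 113 after IFN-γ and at 102, 121 and 114 after both. The IL-4 libraries were each above the other 3 groups within their R number. Uqcrq, a small subunit, was highest in R2 in every group: it stood at 33.4, 38.0 and 21.7 untreated, at 15.9, 37.7 and 21.7 after IL-4 for 4 h and at 31.4, 68.5 and 33.3 after both for 4 h. Uqcrb, a subunit near the quinone site, was called in no comparison and changed by at most 0.17 against untreated.

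Complex IV, cytochrome c oxidase, had 2 of 13 genes raised after IL-4 for 4 h, 7 after IFN-γ and 8 after both, and none lowered. Under all 4 scalings the counts were 2, 0 and 5. Cox5a, a structural subunit, stood at 77.3, 41.9 and 47.3 in untreated R1, R2 and R3, at 100.3, 84.0 and 88.5 after IL-4 for 4 h and at 101, 94.2 and 88.1 after both. Untreated R1 stood apart from R2 and R3 in this gene. The changes were 0.75 (SE 0.14, adjusted p = 3.08e-04) and 0.81 (SE 0.14, adjusted p = 8.32e-05), with no overlap between groups; against untreated R1 alone they were 0.32 and 0.38.

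Cox6a1, a regulatory subunit whose promoter is shown above, rose after IL-4 (0.38, SE 0.11, adjusted p = 0.00989) and after both for 4 h (0.69, SE 0.11, adjusted p = 3.62e-05) under all 4 scalings. It stood at 76.6, 77.9 and 69.1 untreated and at 95.0, 172 and 106 after both for 4 h. The R2 library was the highest of its group. Cox7b and Cox7a2, small subunits, rose after both for 4 h by 0.38 (SE 0.09, adjusted p = 9.14e-04) and 0.51 (SE 0.08, adjusted p = 2.38e-05) under all 4 scalings. Cox7b stood at 76.5, 127 and 63.2 untreated, at 69.4, 111 and 73.6 after IL-4 for 4 h and at 100.1, 147 and 92.8 after both for 4 h. Each library of both cytokines was above the untreated and the IL-4 library of its R number, and the groups overlapped because R2 ran high; without the block neither gene was called (adjusted p = 0.356 for Cox7b and 0.142 for Cox7a2). Cox5b was called in no comparison, and its untreated R1 library (62.1) stood above R2 (34.5) and R3 (32.2).

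In complex V, the ATP synthase, 4 of 17 genes rose after IL-4 for 4 h, 8 after IFN-γ and 9 after both. Under all 4 scalings 4, 1 and 3 rose. The genes that fell at 4 h were Atp5sl, after each treatment, and Atp5s, after IFN-γ and after both. Atp5b, the catalytic beta subunit, stood at 403, 478 and 407 in untreated R1, R2 and R3, at 543, 616 and 578 after IL-4 for 4 h, at 555, 672 and 556 after IFN-γ and at 545, 716 and 588 after both. Its 9 treated libraries at 4 h were above all untreated ones. The changes were 0.43 (SE 0.07, adjusted p = 1.04e-04), 0.47 (SE 0.07, adjusted p = 2.77e-05) and 0.51 (SE 0.07, adjusted p = 8.2e-06); against untreated R1 alone they were 0.36, 0.40 and 0.45. Without Rn45s and Lars2 the change after IFN-γ was 0.15 (adjusted p = 0.0774). Atp5a1, the alpha subunit, rose after IL-4 by 0.23 (SE 0.06, adjusted p = 0.00579) under all 4 scalings, and Atp5c1, the gamma subunit of the central stalk, was called in no comparison. Without the block neither Atp5b nor Atp5a1 was called after IL-4 for 4 h.

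Atp5f1 (chr3:105942698-105960099, minus strand), which codes for subunit b of the peripheral stalk, rose with IFN-γ, alone or with IL-4, under all 4 scalings. It stood at 163, 189 and 142 in untreated R1, R2 and R3, at 157, 193 and 179 after IL-4 for 4 h, at 261, 257 and 231 after IFN-γ for 4 h and at 239, 263 and 224 after both for 4 h. The 6 libraries with IFN-γ at 4 h were above all untreated and all IL-4 libraries. The changes against untreated were 0.61 (SE 0.08, adjusted p = 2.63e-06) after IFN-γ and 0.56 (SE 0.08, adjusted p = 5.45e-06) after both at 4 h, and 0.37 and 0.38 at 2 h. After IL-4 the changes were -0.02 at 2 h and 0.10 at 4 h, and neither was called. Against untreated R1 alone the 4 changes with IFN-γ lay between 0.33 and 0.56.

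Atp5sl (chr7:25619414-25625551, plus strand), now named Dmac2 and known as a factor for the distal membrane arm of complex I, fell in all 6 comparisons with untreated. It stood at 15.8, 17.8 and 18 in untreated R1, R2 and R3, at 12.8, 14.3 and 14.9 after IL-4 for 4 h, at 5.01, 9.76 and 8.30 after IFN-γ for 4 h and at 7.496, 8.21 and 8.50 after both. The untreated libraries were above all treated ones. The change after IFN-γ was -1.11 (SE 0.11, adjusted p = 1.26e-07) and after both -1.01 (SE 0.11, adjusted p = 3.4e-07), each under all 4 scalings; after IL-4 it was -0.28 (SE 0.11, adjusted p = 0.0425), which turned to 0.17 in the deposited CPM. Atp5s, now Dmac2l, fell by 0.28 on the log2 scale after IFN-γ (adjusted p = 0.0241) and after both (adjusted p = 0.0251), each called under 3 of the 4 scalings.

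**Figure D3:**
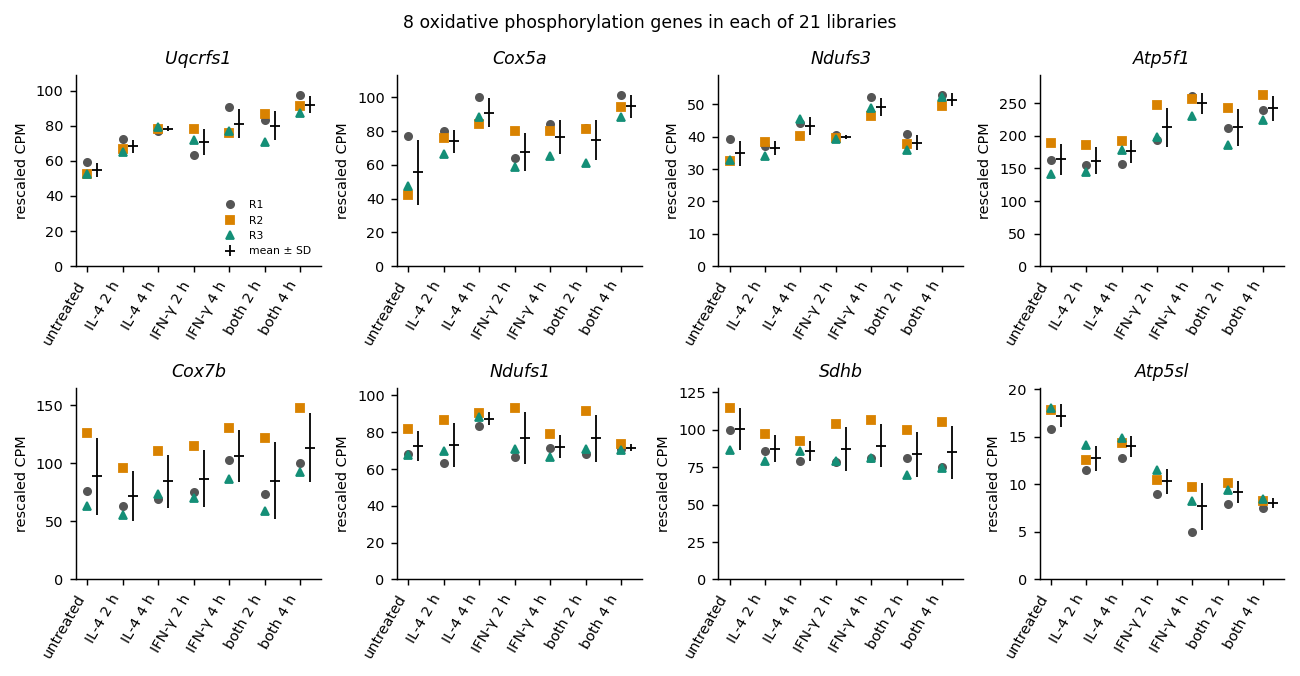
Rescaled CPM (vertical axes, from 0) of 8 genes in each of the 21 libraries, with one marker per R number and the mean ± SD of each group of 3. Uqcrfs1 is above its untreated libraries in all treated groups, Atp5f1 rises in the groups with IFN-γ, Ndufs1 is highest after IL-4 for 4 h by its mean, and Atp5sl falls to between 5.01 and 9.76 after IFN-γ for 4 h.

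Several subunits have paralogs known from particular tissues. Of the pair Cox4i1 and Cox4i2, the second, known from lung and from low oxygen, stayed between 0 and 0.240 rescaled CPM. The muscle and heart forms Cox6a2, Cox8b and Cox7a1 were also low or did not pass the filter: Cox6a2 had 5 to 53 reads per library, and Cox7a1 stood between 0.685 and 2.69 rescaled CPM. The sperm forms Cox6b2, Cox7b2 and Cox8c, and Ndufa4l2, known as induced in low oxygen, did not pass either. Atp5g1, Atp5g2 and Atp5g3 code for the same mature subunit c of the ATP synthase. Of these Atp5g3 rose after IL-4 (0.50, SE 0.10, adjusted p = 5.38e-04) and after both for 4 h (0.51, SE 0.10, adjusted p = 2.61e-04) under all 4 scalings, Atp5g2 was called in no comparison, and Atp5g1 changed by 0.19 after IL-4 and 0.24 after both at 4 h. Atp5g3 stood at 107, 92.3 and 88.2 untreated and at 133, 141 and 132 after IL-4 for 4 h; against untreated R1 alone its changes were 0.24 and 0.25. Whether the 3 paralogs differ in their change was not tested.

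Set directly against each other, IL-4 and IFN-γ for 4 h differed in 15 of the 76 genes. Against IFN-γ, 6 were higher after IL-4, beside 31.9% of all tested genes, and 9 were lower, beside 31.4%. All 6 higher genes, beside 31.9% of all, were called under all 4 scalings: Atp5sl (0.83, SE 0.11, adjusted p = 3.44e-06), Ndufb9 (0.29), Ndufs1 (0.27, SE 0.08, adjusted p = 0.00636), Ndufv3 (0.27), Atp5s (0.24) and Uqcrc2 (0.22). The 9 lower ones, among them Uqcrq (-0.54, SE 0.19, adjusted p = 0.0198), Atp5f1 (-0.51, SE 0.08, adjusted p = 1.86e-05), Cox7b (-0.34), Ndufa7 (-0.27) and Cox7a2 (-0.24), depended on the scaling: without Rn45s and Lars2 no gene was lower and 59 were higher, beside 18.2% and 58.9% of all tested genes, and Cox7b, Ndufa7 and Cox7a2 turned to 0.02, 0.09 and 0.12. That scaling moved the median of all tested genes from 0.01 to 0.33 in this comparison, and the deposited CPM also put it at 0.33. All 3635 tested genes called higher kept the call under all 4 scalings. Keeping the call therefore does not set the 6 higher genes apart. At 2 h 2 genes differed, Atp5f1 (-0.39) and Cox7b (-0.28), beside 39.1% of all tested genes in either direction.

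Adding IFN-γ to IL-4 changed more of these genes than adding IL-4 to IFN-γ; the difference between these counts was not tested. Both cytokines against IL-4 for 4 h gave 11 higher (25.9% of all tested genes) and 3 lower (30.1%). The 3 lower genes, beside 29.2% of all, were called under all 4 scalings: Atp5sl (-0.73, SE 0.11, adjusted p = 2.29e-05), Ndufs1 (-0.28, SE 0.08, adjusted p = 0.00641) and Uqcrc2 (-0.27, SE 0.08, adjusted p = 0.00813), each lower in 3 of 3 R numbers. The median of all tested genes here was -0.04 with the median-ratio factors and -0.06 to -0.27 under the other scalings. Of 3431 tested genes called lower, 3323 kept the call under all 4. Keeping the call therefore does little to set the 3 genes apart. Among the 11 higher, Uqcrq changed by 0.79 (SE 0.19, adjusted p = 0.00195) and Atp5f1 by 0.46 (SE 0.08, adjusted p = 7.33e-05), and none of the 11 was called under all 4 scalings. At 2 h both cytokines against IL-4 gave 3 calls, beside 33.2% of all tested genes: Atp5f1 (0.39), Ndufv3 (-0.22) and Atp5sl (-0.43).

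Both cytokines against IFN-γ gave no call by limma, at 2 h (10.4% of all tested genes called) or at 4 h (32.6%). At an unadjusted p under 0.05 there were 0 and 4 of the 76 genes, and edgeR's quasi-likelihood test on the recovered reads called 0 at both times. At 4 h TMM scaling called 1 gene, and CPM without Rn45s and Lars2 called 8, all higher, beside 20.5% of all tested genes higher and 11.6% lower. The changes at 4 h lay between -0.14 and 0.30.

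**Figure D4:**
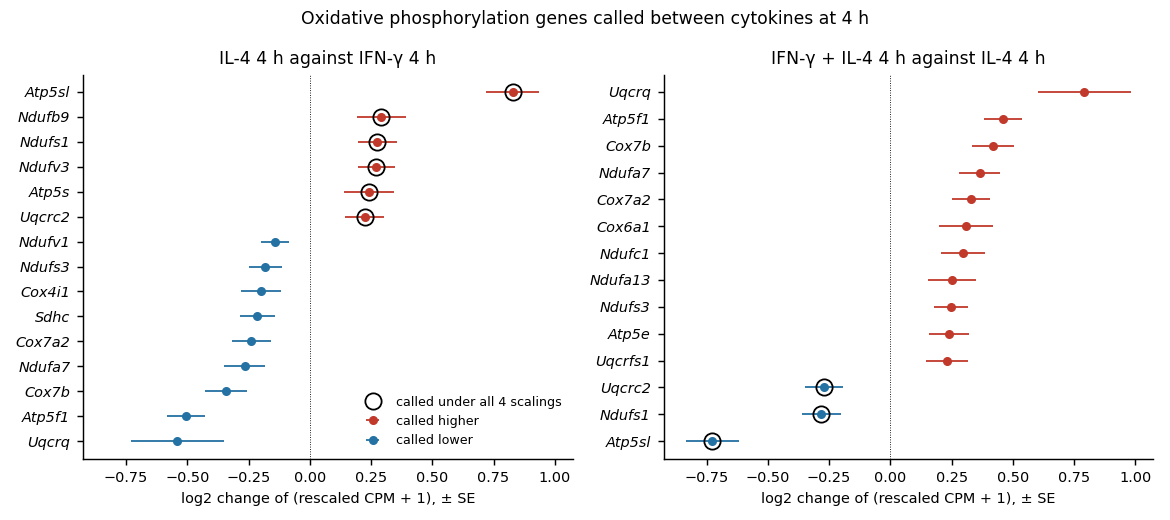
Log2 change ± SE (horizontal axes) of the genes called between IL-4 and IFN-γ for 4 h (left, 15 genes) and between both cytokines and IL-4 for 4 h (right, 14 genes), with rings on genes called under all 4 scalings. Atp5sl, Ndufs1 and Uqcrc2 are ringed in both panels, higher after IL-4 in each. Every tested gene called higher in the left comparison was called under all 4 scalings, so the rings there do not set these genes apart. In the right comparison 3323 of 3431 tested genes called lower were called under all 4, so the rings there do little to set genes apart.

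Between 2 h and 4 h, IL-4 raised 7 genes and lowered 0, beside 9.10% and 10.7% of all tested genes. IFN-γ raised 9 and lowered 2, beside 23.2% and 22.1%, and both cytokines raised 26 and lowered 1, beside 23.0% and 23.8%. These comparisons use no untreated library. Within R1, R2 and R3 the median change of the 76 genes between the times was 0.07, 0.09 and 0.24 after IL-4, 0.15, 0.13 and 0.04 after IFN-γ and 0.11, 0.20 and 0.31 after both. It was above 0 in all 9 pairs of libraries. Without Rn45s and Lars2, IFN-γ raised 0 and lowered 8, beside 13.1% and 37.8% of all tested genes, and both cytokines raised 10 and lowered 2, beside 15.9% and 30.8%. Without the block the calls were 0 for IL-4, 1 for IFN-γ and 2 for both. After both cytokines Ndufs3 (0.42, SE 0.07, adjusted p = 8.9e-05) and Cox6a1 (0.49, SE 0.11, adjusted p = 0.00162) rose with time, each in 3 of 3 R numbers, and Sdha fell by 0.17 on the log2 scale (adjusted p = 0.0305).

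Over the 15 comparisons, Atp5sl was called in 10, Atp5f1 and Ndufs3 in 9 each and Atp5b and Cox7b in 8 each. Calls this frequent were common in the table: 41.0% of all 11380 tested genes were called in at least 8 comparisons. No call was made for 20 of the 76 genes, or 26.3%, beside 8.95% of all tested genes. They were Atp5c1, Atp5d, Atp5g2, Atp5o, Cox5b, Cox6b1, Cox7a1, Cox7a2l, Ndufa2, Ndufa4, Ndufa6, Ndufa10, Ndufb2, Ndufb3, Ndufb8, Ndufs6, Ndufs8, Uqcr10, Uqcrb and Uqcrh. At 4 h 14 genes (18.4%) were called higher under all 3 treatments, beside 10.4% of all tested genes. For 13 (17.1%) the calls were those of IFN-γ and both, beside 12.2% of all, and for 11 (14.5%) that of both alone, beside 1.88%. For 5 (6.58%), Ndufc2, Ndufs1, Ndufv3, Sdhd and Uqcrc2, the call was that of IL-4 alone, beside 3.65%. Differences between these patterns were tested only through the direct comparisons above.

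Genes that work beside the 76 were counted in the same way, with the median-ratio factors only. The shares of all tested genes to set beside these counts are those given above for 4 h: 23.9% higher and 23.6% lower after IL-4, 32.5% and 30.8% after IFN-γ, and 33.4% and 33.4% after both. Of 12 subunits and partners outside the symbol rule, 6 rose and 1 fell after IL-4 for 4 h, and 7 rose and 0 fell after IFN-γ and after both. Cytochrome c, Cycs, rose by 0.98 (SE 0.12), 1.21 (SE 0.12) and 1.67 (SE 0.12), with group means of 54.1 ± 20.3 untreated, 105 ± 23.4, 123 ± 21.4 and 168 ± 26.6 rescaled CPM (SD, n = 3). AA467197, a relative of Ndufa4, went from 0.901 ± 0.322 (SD, n = 3) untreated to 2.43 ± 0.866 after IL-4, 10.3 ± 6.59 after IFN-γ and 22.1 ± 13.1 after both, log2 changes of 0.83, 2.43 and 3.48 on the scale with 1 CPM added. Both genes rose under all 4 scalings in the 3 comparisons, and their changes were larger than those of any of the 76 genes in the same direction.

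Of 45 tested assembly factors, which build the complexes, 22 rose and 1 fell after IL-4 for 4 h, 11 rose and 8 fell after IFN-γ, and 21 rose and 5 fell after both; the median after IFN-γ was 0.06 and turned to -0.20 without Rn45s and Lars2. Ndufaf4 (0.90), Sdhaf1 (0.87) and Ecsit (0.83) led after IL-4, and Sco1 (1.46), which delivers copper to complex IV, and Coa5 (1.24) led after IFN-γ, each under all 4 scalings. Uqcc3, a factor for complex III, fell by 0.65 on the log2 scale after IFN-γ under all 4. Of 18 genes of the tricarboxylic acid cycle and pyruvate dehydrogenase, 10 rose and 0 fell after IL-4, 4 rose and 2 fell after IFN-γ, and 5 rose and 3 fell after both. Fumarate hydratase, Fh1, led in all 3, at 1.09 (SE 0.09), 0.64 (SE 0.09) and 1.72 (SE 0.09). Of 15 tested regulators of mitochondrial genes, 8 rose and 0 fell after IL-4, 7 rose and 5 fell after IFN-γ, and 6 rose and 2 fell after both; the co-activator Ppargc1b rose by 1.96, 1.56 and 1.89 (SE 0.20 each) under all 4 scalings, and the growth regulator Myc rose by 3.08 after IL-4 and 2.93 after both under all 4 scalings, and fell by 0.46 on the log2 scale after IFN-γ under 3 of the 4. Hif1a, a factor of the response to low oxygen, rose by 1.68 (SE 0.11, adjusted p = 5.93e-10) after IFN-γ and 1.67 (adjusted p = 4.72e-10) after both under all 4 scalings, and its change of 0.23 after IL-4 (adjusted p = 0.0832) was not called.

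Beside the same shares of all tested genes, of 77 mitochondrial ribosomal protein genes 41 rose and 1 fell after IL-4 for 4 h, 23 rose and 10 fell after IFN-γ, and 40 rose and 7 fell after both, with medians of 0.23, 0.09 and 0.23. Of 81 tested cytosolic ribosomal protein genes 16 rose and 0 fell, 26 rose and 1 fell, and 44 rose and 0 fell, with medians of 0.10, 0.16 and 0.26. The medians of the 76 genes, 0.14, 0.19 and 0.23, are close to those of the cytosolic ribosomal genes. Without Rn45s and Lars2 the medians after IFN-γ turned to -0.19 for the mitochondrial and -0.14 for the cytosolic ribosomal genes.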

How the data were processed

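The deposited table holds CPM per gene that the authors made from poly(A) libraries; the submitters' processing notes name TopHat2 2.1.0, HTSeq, edgeR and the mm10 (GRCm38) build. Strand and multi-match settings are not given in the sources used here. All values (100%) were whole reads within 0.01 read, so reads were recovered. CPM were divided by median-ratio factors from 13025 genes. limma 3.58.1 (R 4.3.3) was fitted to log2(rescaled CPM + 1) of 11380 genes with at least 1 CPM in 3 libraries, over all 21 libraries, with 7 group means and the R number as a block (12 residual degrees of freedom) and Benjamini-Hochberg adjustment. Changes on this scale understate low genes. Deviations from group means correlated between libraries of the same R number (r from 0.539 to 0.951, 63 pairs) and less between others (at most 0.369), so the numbers pair the libraries. edgeR 4.0.16 on the recovered reads was an alternative. The fit was also run on simulated reads in which no untreated library was given a raised share of Rn45s. That run therefore does not cover this feature of the data.

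The members, pathway lists and marker lists were chosen with earlier results of these data known. Genes were named by rule: core subunits, paralog sets, up to 5 called members per direction and comparison with the largest change, the members called most and least often, and up to 3 called genes per direction of each other list at 4 h; some results under this rule, and of the motif search, are not reported here. Spans and lengths are from GENCODE for 75 of the 76 genes, promoters from RefSeq (GRCm38.p6).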

Additional observations from a re-analysis of the deposited data

Results flagged for a closer look

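In 3 genes the difference between IFN-γ and IL-4 changed between 2 h and 4 h, by a test of that change itself in the limma fit, a comparison chosen after seeing the data; 32.7% of all tested genes were called in it. The value is the log2 difference of IFN-γ minus IL-4 at 4 h less that at 2 h. It was -0.55 for Atp5sl (SE 0.15, adjusted p = 0.0112), -0.36 for Uqcrc2 (SE 0.11, adjusted p = 0.0223) and -0.34 for Ndufs1 (SE 0.11, adjusted p = 0.0288), each below 0 in 3 of 3 R numbers.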

How the results depend on the processing

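The counts of called genes changed with the scaling, the block and the libraries used, and the cause was not tested. In the order IL-4, IFN-γ and both against untreated, the fit gave 7, 12 and 9 calls at 2 h and 24, 31 and 45 at 4 h. The deposited CPM gave 25, 8 and 7 at 2 h and 64, 10 and 30 at 4 h. CPM without Rn45s and Lars2 gave 4, 5 and 12, then 30, 30 and 21. Without filter IL-4 for 2 h gave 4. Against untreated R1 alone, a fit chosen after seeing the data in which the lone library is assumed to vary like the other groups, the calls were 3, 6 and 10, then 6, 11 and 15. Leaving out 1 library or 1 R number gave 0 to 11, 2 to 15 and 4 to 13 calls at 2 h and 5 to 34, 11 to 43 and 19 to 54 at 4 h, and without R3 in any group the calls at 4 h were 4 higher and 1 lower, 10 and 1, and 18 and 1.

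Without the replicate block the calls at 2 h numbered 0, 2 and 2, and those at 4 h 6, 10 and 14; for IL-4 against IFN-γ they were 0 at 2 h and 2 at 4 h, for both against IL-4 0 and 3, and between the times 0 (IL-4), 1 (IFN-γ) and 2 (both). The deposited CPM with no replicate block, also added after seeing the data, gave 4, 2 and 2 at 2 h, 30, 4 and 12 at 4 h, 0 and 6 for IL-4 against IFN-γ, 0 and 1 for both against IL-4, and 0, 0 and 0 between the times.

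Between cytokines, the deposited CPM gave 0 at 2 h for IL-4 against IFN-γ and 0 and 4 for both against IL-4; CPM without Rn45s and Lars2 gave 6 and 59 for the first and 29 at 4 h for the second. edgeR gave 4 for IL-4 against IFN-γ at 2 h. For both against IFN-γ at 4 h TMM gave 1, CPM without Rn45s and Lars2 8 and untreated R1 alone 1. Between the times, the deposited CPM gave 0, 1 and 1, TMM 12 for IL-4 and 7 for IFN-γ, and CPM without Rn45s and Lars2 13 for IL-4 and 12 for both. Leaving out libraries gave 1 to 4 and 7 to 15 (IL-4 against IFN-γ), 1 to 5 and 9 to 17 (both against IL-4), 0 to 0 and 0 to 1 (both against IFN-γ), and 0 to 12, 3 to 14 and 5 to 39 between the times.

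Of 87 values of named genes, 82 kept direction and call under TMM and 84 under edgeR. Far fewer did so elsewhere: 59 without Rn45s and Lars2, 42 in the deposited CPM, 42 without R3 in any group and 25 without the block. In the deposited CPM, with or without the block, 12 turned positive: Cox7b 0.15 and Atp5k 0.17 after IL-4 for 2 h, Atp5sl 0.17 and Sdhb 0.26 after IL-4 for 4 h, Atp5k 0.0625 and Sdhb 0.11 after IFN-γ for 2 h, Atp5k 0.009 and Sdhb 0.0641 after both for 2 h, Sdha 0.0103 after both for 4 h, and Cox7b 0.018, Ndufa7 0.0877 and Cox7a2 0.12 for IL-4 against IFN-γ at 4 h. CPM without Rn45s and Lars2 turned the last 3 as well, to 0.0163, 0.086 and 0.1187.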
